A study of Homo sapiens with 4 samples.

Results

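The levels of 8 long noncoding RNAs were followed in KGN cells with and without overexpression of TOX3. They were the rows of the expression table named MALAT1, NEAT1, H19, MEG3, KCNQ1OT1, TUG1, NORAD and OIP5-AS1, 8 of the 33880 genes in the table, and each was read in all 4 libraries. KGN is an established human cell line from a granulosa cell tumor, grown here in DMEM/F12 medium with serum and antibiotics. The control cells (LV-CON, 2 libraries) carried the control lentivirus and the other cells (LV-TOX3, 2 libraries) a lentivirus carrying full length TOX3. Both groups therefore shared the viral infection, at a ratio of 1 to 200, and the selection with 2 mg/ml puromycin for 2 passages. The paper calls the samples independent duplicates, but neither it nor the labels say whether the 2 libraries per group stem from separate infections or cultures, and any p-value therefore reflects no more than the spread among these 4 libraries, which may be technical. No cloning of infected cells is stated, and TOX3 came from a vector rather than from its own gene.

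Long noncoding RNAs are transcripts that act as RNA, without being translated into an abundant protein. Some build or occupy bodies of the nucleus: MALAT1 collects in nuclear speckles, which store splicing factors, and NEAT1 is the RNA scaffold of paraspeckles. Others are made from imprinted loci, where only the copy from 1 parent is active (H19, MEG3, KCNQ1OT1), or bind regulatory proteins in the nucleus or cytoplasm (TUG1, NORAD, OIP5-AS1). They are studied in the ovary and in tumors because many of them respond to growth and stress signals.

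TOX3 itself was at 0 in LV-CON, whereas LV-TOX3 replicates 1 and 2 held 1586 and 1428 of its reads, or 18.1 and 17.3 RPKM (reads per length of gene and per depth of library). The libraries held between 16403371 and 17858746 reads, and 98.2% of them lay in genes of the table. Of 9 granulosa cell markers, 6 lay above 4 RPKM in every library, among them FOXL2 at a mean of 10.7 RPKM in LV-CON and NR5A1 at 21.5, while 2 others lay at 0.703 to 1.10 RPKM, INHA among them, and AMHR2 had 1 to 9 reads. The summed levels of markers of other cells were 0 to 0.0163 RPKM for theca or Leydig cells, 0.287 to 0.421 for oocytes and 0.501 to 0.763 for immune cells. Endothelial markers summed to 2.44 to 3.25 RPKM, nearly all of it KDR, with CDH5 at 0 in 3 libraries and 1 read in the other. Epithelial markers summed to 483 to 638 RPKM, mostly the keratin KRT18. The keratins KRT8 and KRT19 lay at 10.0 to 11.7 and 2.37 to 5.06 RPKM, EPCAM had 0 to 5 reads, and CDH1 lay at 0.242 to 0.616 RPKM. Over the 14184 genes that averaged 0.5 RPKM or more, limma called 1, TOX3, at a Benjamini-Hochberg adjusted p under 0.05, which is 0.00705% of the genes tested. A wider threshold, an unadjusted p under 0.05 with a log2 fold change beyond 0.3, was passed by 324 genes that were higher in LV-TOX3 (2.28%) and 374 that were lower (2.64%), or 4.92% of the genes in all. In RNA of whole cultures, a change in the number of cells that make an RNA and a change in the RNA of each cell cannot be told apart.

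The name abundant fitted 5 of the 8 RNAs. In LV-CON the mean level was 42.6 RPKM for NORAD, 35.4 for MALAT1, 34.6 for NEAT1, 12.3 for OIP5-AS1 and 10.6 for TUG1. H19 followed at 1.20 RPKM, KCNQ1OT1 at 0.0324 and MEG3 at 0.00178. The ranges of the LV-CON libraries overlapped between NORAD and MALAT1 and between MALAT1 and NEAT1, while from NEAT1 downwards each RNA lay above the next in every library. In LV-TOX3 the order began with MALAT1 at 88.4 RPKM, followed by NORAD at 41.4 and NEAT1 at 29.2, and here each RNA lay above the next in both libraries. Among the 1337 annotated lncRNA genes tested, MALAT1 moved from place 8 by mean level in LV-CON to place 3 in LV-TOX3, whereas NEAT1 was at places 9 and 10 and NORAD at places 7 and 9.

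**Figure D1:**
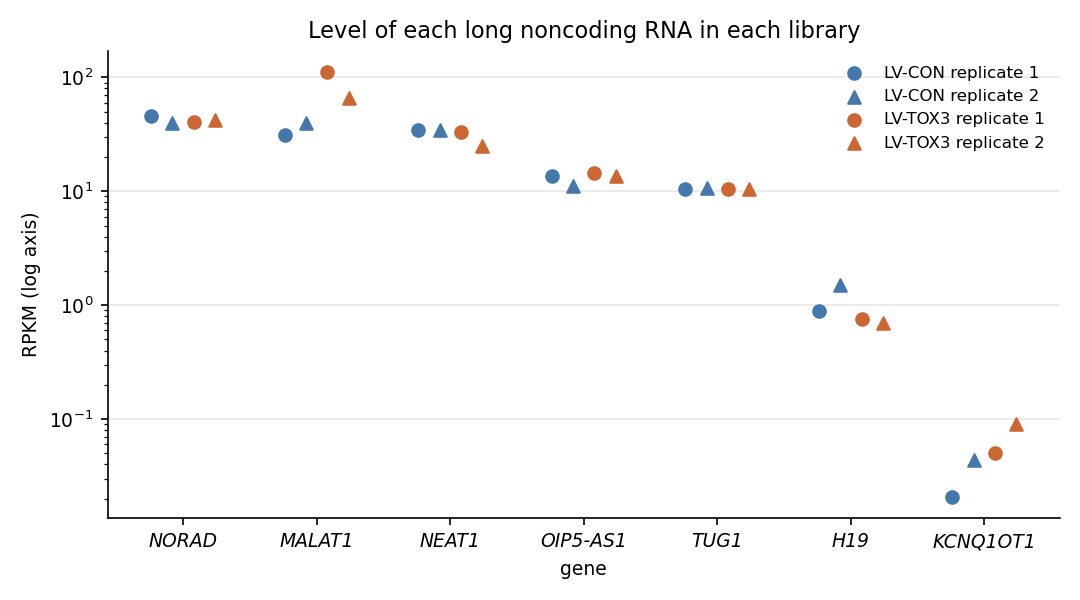
RPKM of 7 of the RNAs (x axis) in each library, on a log axis; blue points are the 2 LV-CON libraries and orange points the 2 LV-TOX3 libraries, with circles for replicate 1 and triangles for replicate 2. MEG3 is left out because 3 libraries were at 0. MALAT1 shows the widest gap between the groups among the RNAs above 10 RPKM, with 31.0 and 39.8 RPKM in LV-CON against 111 and 65.4 in LV-TOX3.

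Of the 8 RNAs, 6 passed the filter on low values and were tested, and 1 of the 6, MALAT1, passed the wider threshold. None passed the adjusted p in limma, nor in limma-voom on reads recovered from the RPKM values, fitted without a block. At an unadjusted p under 0.05 the count was also 1, beside 6.80% of all genes tested at that p (3.07% higher and 3.73% lower). Libraries of the groups did not overlap for MALAT1 and KCNQ1OT1 (higher in LV-TOX3) and for NEAT1, H19 and TUG1 (lower), while 17.0% of all genes tested were separated upwards and 20.6% downwards. KCNQ1OT1 was below the filter and is not among those tested. The median log2 fold change of the 6 RNAs was -0.03, beside -0.01 over all genes tested.

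MALAT1 (ENSG00000251562) is transcribed from the plus strand of chr11:65497640-65508073 (hg38, GENCODE v44), which is annotated as a lncRNA gene. Its mature RNA ends not in an ordinary poly(A) tail but in a triple helix of RNA, left when RNase P cuts off a small tRNA-like RNA. The libraries were made from RNA held on oligo(dT) beads, so an RNA of this kind can be held by A-rich stretches of its own. RefSeq gives 2 promoter windows, from 250 bases before to 50 bases after a start, and both are shown because they mark alternative starts of the RNA that had the highest log2 fold change of the 6. Of the 66 annotated transcripts, 5 start in the upstream window and 33 in the downstream one. Capitals mark TGACG, the shortened core of the cAMP response element, in the first window and the TATA box core TATAAA in the second, whose first base is at position -30 from the RefSeq start.

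MALAT1 upstream window, chr11:65497488-65497787, plus strand: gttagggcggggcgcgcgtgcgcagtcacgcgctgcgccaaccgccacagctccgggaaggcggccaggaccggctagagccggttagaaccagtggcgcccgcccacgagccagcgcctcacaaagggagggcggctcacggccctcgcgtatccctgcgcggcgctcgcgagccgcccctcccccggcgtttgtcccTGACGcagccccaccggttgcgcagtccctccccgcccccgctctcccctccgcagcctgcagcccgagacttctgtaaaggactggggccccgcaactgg
MALAT1 downstream window, chr11:65498795-65499094, plus strand: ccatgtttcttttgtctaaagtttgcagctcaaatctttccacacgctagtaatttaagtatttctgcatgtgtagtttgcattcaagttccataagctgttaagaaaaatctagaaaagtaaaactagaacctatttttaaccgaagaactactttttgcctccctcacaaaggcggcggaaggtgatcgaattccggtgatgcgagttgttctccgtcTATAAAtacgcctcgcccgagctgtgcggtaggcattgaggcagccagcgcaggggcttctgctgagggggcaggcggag

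The cAMP response element was searched because TOX3 is known to interact with CREB, the factor that binds it. TGACG was sought on both strands and stood in 24.6% of 35116 RefSeq promoter windows of this length in the genome build GRCh38.p14. TATAAA stood in 11.5% of them. The full element TGACGTCA, which contains TGACG, was in neither MALAT1 window. A match describes letters and is not evidence of binding, and no binding was measured here.

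MALAT1 measured 31.0 and 39.8 RPKM in LV-CON replicates 1 and 2 against 111 and 65.4 RPKM in LV-TOX3 replicates 1 and 2. These values rested on 4819, 6230, 16976 and 9387 reads, so counting error was small beside the gaps between libraries. Both LV-TOX3 libraries lay above both LV-CON libraries, but the LV-TOX3 libraries themselves were far apart, with replicate 2 at 0.587 of replicate 1. The mean was 35.4 ± 6.26 RPKM in LV-CON against 88.4 ± 32.5 in LV-TOX3 (SD, n = 2 each), a ratio of 2.49. The log2 fold change was 1.28 with a standard error of 0.28 and a 95% interval of 0.56 to 1.99 (limma, unadjusted p = 0.0060, adjusted p = 0.655). By p, MALAT1 was at place 123 of the 14184 genes, and 1.10% of the genes had a log2 fold change at least as high. Without LV-CON replicate 1 the log2 fold change was 1.10 and the unadjusted p of limma was 0.0606, so the wider threshold was no longer passed.

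Within each library, MALAT1 was set against the other abundant RNAs, since such a ratio does not depend on the total reads. The ratio of MALAT1 to NEAT1, its neighbour on the chromosome, was 0.893 and 1.16 in LV-CON against 3.34 and 2.61 in LV-TOX3. Against NORAD it was 0.674 and 1.01 in LV-CON against 2.73 and 1.56 in LV-TOX3. Against OIP5-AS1 it was 2.28 and 3.60 in LV-CON against 7.66 and 4.80 in LV-TOX3. In each of these ratios both LV-TOX3 libraries exceeded both LV-CON libraries. The ratios share the same MALAT1 values, so they are not independent of each other or of the MALAT1 difference above. All 8 RNAs together took 0.156% of the reads in each LV-CON library and 0.221% and 0.162% in LV-TOX3 replicates 1 and 2.

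**Figure D2:**
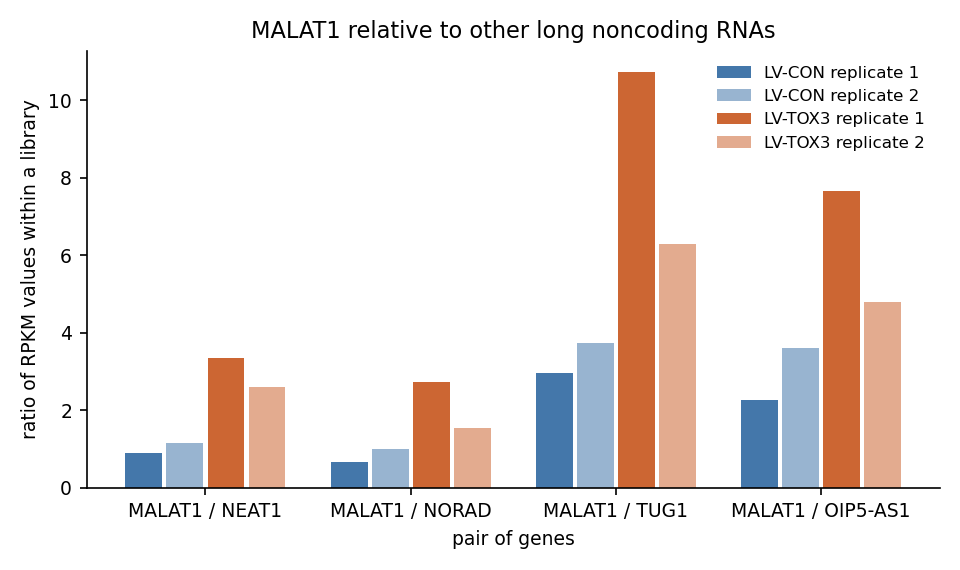
Ratio of the MALAT1 RPKM to that of NEAT1, NORAD, TUG1 or OIP5-AS1 within each library; bars start at 0, blue bars are LV-CON and orange bars LV-TOX3, with the paler bar of each colour for replicate 2. The MALAT1 to TUG1 ratio was 2.97 and 3.74 in LV-CON against 10.7 and 6.30 in LV-TOX3, and for each of the 4 pairs the LV-TOX3 bars stand above the LV-CON bars. The 4 pairs share the same MALAT1 values and are not independent.

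The A-rich stretch of MALAT1 is shown because the beads hold RNA by such runs. The longest run of A in its 10434-base transcript was 13 bases, set in capitals, and 12.5% of 4522 GENCODE lncRNA transcripts of at least 2000 bases had a run as long.

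MALAT1 stretch with the longest A run, chr11:65506068-65506140, plus strand: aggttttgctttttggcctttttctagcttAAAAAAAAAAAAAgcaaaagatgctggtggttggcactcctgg

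A list of 22 other RNAs classed as lacking an ordinary tail was examined beside MALAT1. Of these 9 were in the table, and 4 had a mean of at least 0.5 RPKM. None of the 4 passed an unadjusted p under 0.05, and all had negative log2 fold changes. RN7SL2, an RNA of the signal recognition particle, measured 12.4 and 18.5 RPKM in LV-CON against 11.9 and 6.71 in LV-TOX3, on 33 to 99 reads (log2 fold change -0.76, limma unadjusted p = 0.069). The others were the histone genes HIST1H1C, HIST1H2AC and HIST1H2BK, with overlapping groups and log2 fold changes of -0.03, -0.05 and -0.15. Whether the histone reads came from RNA with a tail was not tested. The 15 mitochondrial RNAs of the table had a median log2 fold change of 0.03, and none passed. Messenger RNAs known to keep detained introns in the nucleus, such as those of the kinases CLK1 and CLK4 and the splicing regulator TIA1, numbered 14 tested. Of these 11 had positive and 3 negative log2 fold changes, with a median of 0.07 and none past an unadjusted p under 0.05, while 46.8% of all genes were positive. This median was 0.0082 without LV-CON replicate 1 and -0.0039 without LV-TOX3 replicate 2. TALAM1, an antisense RNA known over MALAT1, was not analysed here, and whether the libraries kept the strand is not given in the sources used here, so reads of overlapping antisense RNAs cannot be told apart from those of MALAT1.

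The proteins that share nuclear speckles with MALAT1 were measured through their mRNAs. Of 24 tested, 11 had positive and 13 negative log2 fold changes, with a median of -0.03. None was higher and 4 were lower at an unadjusted p under 0.05, where 3.07% of all genes tested were higher and 3.73% lower. The median was between -0.13 and 0.09 when 1 library was left out. PNN, a protein of exon junctions, measured 28.5 and 31.4 RPKM in LV-CON against 23.9 and 23.4 in LV-TOX3 (log2 fold change -0.34). RBM25, a splicing regulator, measured 11.7 and 12.1 RPKM in LV-CON against 8.99 and 6.55 in LV-TOX3 (log2 fold change -0.63). PNN and RBM25 passed the wider threshold, and without LV-CON replicate 1 the count was 1. Among all genes tested, 46.8% were positive and 2.64% were lower past the wider threshold. SRSF1 and SRSF2, SR proteins that bind exons, had overlapping groups and log2 fold changes of 0.08 and 0.05. Of 13 genes for the tRNA-like 3′ end processing that shapes MALAT1, 3 were positive and 10 negative and none passed. Among these ELAC2, the nuclease that trims tRNA 3′ ends, had a log2 fold change of -0.03, and METTL16, a methyltransferase known to bind the MALAT1 triple helix, of -0.01.

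NEAT1 (ENSG00000245532) lies 52099 bases upstream of MALAT1 on the same strand, at chr11:65422774-65445540. It is made as a short and a long form, of which the long form builds paraspeckles. The table held 1 value for both, scaled to a length of 22767 bases, the whole annotated gene, so the forms were not separated. NEAT1 measured 34.7 and 34.5 RPKM in LV-CON against 33.3 and 25.04 RPKM in LV-TOX3, on 9353 to 14041 reads. Both LV-TOX3 libraries lay below LV-CON, replicate 1 narrowly and replicate 2 clearly. The mean was 34.6 ± 0.185 RPKM in LV-CON against 29.2 ± 5.87 in LV-TOX3 (SD, n = 2 each), and the log2 fold change was -0.26 with a standard error of 0.15 and a 95% interval of -0.64 to 0.12 (limma, unadjusted p = 0.137, adjusted p = 0.790). Without LV-TOX3 replicate 2 it was -0.05, and without LV-TOX3 replicate 1 it was -0.46 with an unadjusted p of 0.0071 in limma, past the wider threshold.

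Paraspeckle proteins had 9 positive and 20 negative log2 fold changes among 29 tested, with a median of -0.08, beside 6633 positive and 7551 negative over all genes. At an unadjusted p under 0.05, 1 was higher and 6 were lower, and 3 of the lower ones passed the wider threshold. Over all genes tested, 3.07% were higher and 3.73% lower at that p, and 2.64% were lower past the wider threshold. TAF15, an RNA-binding protein, measured 33.0 and 23.1 RPKM in LV-CON against 15.6 and 8.43 in LV-TOX3. Its groups did not overlap although libraries differed within them, and the log2 fold change was -1.26 with a standard error of 0.33 (limma, unadjusted p = 0.0129, adjusted p = 0.655). EWSR1, a related RNA-binding protein, had overlapping groups and a log2 fold change of -0.12. HNRNPH3, an hnRNP protein of paraspeckles, also passed the wider threshold, with 22.1 and 20.4 RPKM against 15.6 and 17.2. The core proteins SFPQ, NONO and PSPC1, which bind NEAT1 as pairs, had log2 fold changes of 0.09, -0.10 and 0.03 and none passed. The count of 3 was 1 without LV-CON replicate 1, 5 without LV-CON replicate 2 and 5 without LV-TOX3 replicate 2.

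NORAD (ENSG00000260032) lies on the minus strand of chr20:36045618-36051018 and is a cytoplasmic RNA known to bind Pumilio proteins such as PUM2, which repress mRNAs. It measured 46.0 and 39.3 RPKM in LV-CON against 40.7 and 42.0 RPKM in LV-TOX3. The groups overlapped, with both LV-TOX3 libraries inside the range of LV-CON, and the means were 42.6 ± 4.68 and 41.4 ± 0.910 RPKM (SD, n = 2 each). The log2 fold change was -0.04, with a 95% interval of -0.29 to 0.21 (limma, unadjusted p = 0.698, adjusted p = 0.961), and it was 0.07 without LV-CON replicate 1.

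The sequence of NORAD held more Pumilio matches than that of any of the other 7 RNAs. The Pumilio motif TGTANATA, sought on the transcript strand, occurred 15 times in its 5401 bases, or 2.78 times per kilobase, and its letters cannot overlap a further copy of itself. A density as high was found in 0.133% of the 4522 lncRNA transcripts, of which 27.6% held any match. The 7 other RNAs held between 0 matches (MALAT1 and H19) and 9 (KCNQ1OT1). Of the 15 matches, 5 are shown in transcript order with 9 bases on either side, to let the repeated surroundings be compared, and capitals mark the motif.

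NORAD match 1, chr20:36050184-36050209, minus strand: gaaggcctgTGTATATAatatgaaaa
NORAD match 3, chr20:36049704-36049729, minus strand: atcacatttTGTAAATAcctttttgt
NORAD match 5, chr20:36049494-36049519, minus strand: tgtatatagTGTACATAaaggacaga
NORAD match 11, chr20:36047973-36047998, minus strand: accctactgTGTATATAgcggacaaa
NORAD match 15, chr20:36046346-36046371, minus strand: tagcctattTGTAAATAcctttgtta

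Of 7 NORAD partners tested, 1 was positive and 6 negative, with a median of -0.03, which was 0.02 without LV-TOX3 replicate 1. Among all genes tested, 46.8% were positive and 3.73% were lower at an unadjusted p under 0.05. PUM2 had overlapping groups and a log2 fold change of -0.02. PRPF19, a splicing factor known to join NORAD in a nuclear complex, was the member below an unadjusted p of 0.05, with 38.4 and 37.9 RPKM in LV-CON against 34.0 and 32.2 in LV-TOX3 (log2 fold change -0.21, limma unadjusted p = 0.030), a size inside the 0.3 of the wider threshold.

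OIP5-AS1 (ENSG00000247556), at chr15:41283958-41322392 on the plus strand, is the human form of cyrano, which in mouse is known to direct the decay of the miRNA miR-7. It measured 13.6 and 11.1 RPKM in LV-CON against 14.5 and 13.6 in LV-TOX3, so that LV-CON replicate 1 overlapped the LV-TOX3 libraries. The log2 fold change was 0.20, with a 95% interval of -0.12 to 0.51 (limma, unadjusted p = 0.172, adjusted p = 0.806). Without LV-CON replicate 1 it was 0.34 with an unadjusted p of 0.0361 in limma, past the wider threshold, and without LV-CON replicate 2 it was 0.05. OIP5, a centromere protein whose gene overlaps it on the other strand, measured between 2.37 and 3.90 RPKM with overlapping groups. NUSAP1, a spindle protein whose gene overlaps the end of OIP5-AS1 on the same strand, measured 36.2 and 38.6 RPKM in LV-CON against 26.8 and 29.9 in LV-TOX3 (log2 fold change -0.40, limma unadjusted p = 0.0058). ELAVL1, an mRNA-stabilizing protein known to bind OIP5-AS1, had overlapping groups and a log2 fold change of -0.06. Reads from exons that these genes share cannot be told apart.

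TUG1 (ENSG00000253352), at chr22:30969245-30979395 on the plus strand, is treated as a regulatory RNA but is typed as protein coding in GENCODE v44. Among the 7 RNAs detected in every library it had the smallest spread, at 10.4 and 10.7 RPKM in LV-CON against 10.4 and 10.4 RPKM in LV-TOX3. The highest library was 1.03 times the lowest, and although the groups did not overlap the gap between them was narrower than the gap within LV-CON. The log2 fold change was -0.02, with a 95% interval of -0.22 to 0.17 (limma, unadjusted p = 0.758, adjusted p = 0.969). TUG1 is known to bind Polycomb, which silences genes by methylating histone H3. Of 15 Polycomb and silencing genes tested, 2 were positive and 13 negative, with a median of -0.10, and 2 were lower at an unadjusted p under 0.05, beside 46.8% positive and 3.73% lower at that p over all genes tested. PHF19, a Polycomb targeting subunit, measured 8.61 and 9.72 RPKM in LV-CON against 6.96 and 7.54 in LV-TOX3 (log2 fold change -0.33), and was the 1 gene past the wider threshold. That count was 0 when LV-CON replicate 2 or either LV-TOX3 library was left out. Of all genes tested, 2.64% were lower past the wider threshold. EZH2 and SUZ12, core subunits of the methylating complex, had overlapping groups and levels in LV-CON and LV-TOX3 of 23.4 and 21.8 RPKM for EZH2 and of 10.004 and 9.997 RPKM for SUZ12 on average.

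The imprinted RNAs were the scarce ones. H19 (ENSG00000130600), at chr11:1995166-2004552 on the minus strand, is a maternally expressed RNA of fetal tissues and the precursor of miR-675. It measured 0.897 and 1.51 RPKM in LV-CON against 0.752 and 0.691 in LV-TOX3, on 45, 76, 37 and 32 reads. Both LV-TOX3 libraries lay below both LV-CON libraries, and LV-CON replicate 2 stood above the other 3. The log2 fold change was -0.62 with a standard error of 0.32 and a 95% interval of -1.46 to 0.21 (limma, unadjusted p = 0.113, adjusted p = 0.773). Without LV-CON replicate 2 it was -0.28, and without LV-CON replicate 1 it was -0.97 with an unadjusted p of 0.0314 in limma, past the wider threshold. IGF2, the growth factor gene that shares enhancers with H19, was listed at 0 in all 4 libraries.

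KCNQ1OT1 (ENSG00000269821) is transcribed from the paternal copy of chr11:2597308-2700003, on the minus strand, within the potassium channel gene KCNQ1, and is known, chiefly from mouse, to silence genes around it. Its reads numbered 34 and 72 in the LV-CON libraries against 80 and 135 in LV-TOX3. Over its length of 91667 bases these are 0.0209 and 0.0440 RPKM in LV-CON against 0.0501 and 0.0898 in LV-TOX3. Both LV-TOX3 libraries lay above LV-CON, LV-TOX3 replicate 1 only slightly above LV-CON replicate 2, and the ratio of the means was 2.16. Its mean was under the filter of 0.5 RPKM. Fitted without that filter, the log2 fold change on the log2(RPKM + 0.1) scale was 0.36 with a standard error of 0.28 (limma, unadjusted p = 0.273, adjusted p = 0.781). At such low RPKM this scale understates a change. A fit by limma-voom on 14864 genes averaging 10 or more reads, chosen after seeing the data, gave a log2 fold change of 1.13 with a standard error of 0.41 (unadjusted p = 0.0236, adjusted p = 0.657), where 0.00673% of genes passed the adjusted p, and 2.24% were higher and 2.35% lower past the wider threshold. KCNQ1 itself, whose gene lies on the other strand, had 2, 0, 2 and 1 reads, and CDKN1C, the cell cycle inhibitor that KCNQ1OT1 is known to silence, had 9, 4, 6 and 4 reads. At this depth a difference in either was not detectable. Whether the libraries kept the strand is not given in the sources used here. Reads counted for KCNQ1OT1 therefore cannot be told apart from RNA of KCNQ1 over the same stretch.

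MEG3 (ENSG00000214548), a maternally expressed RNA known for restraining cell growth, lies at chr14:100779410-100861031 on the plus strand. It had 1 read in LV-CON replicate 2 and none in the other 3 libraries, so no fold change is given. A count of 0 allows up to 3 reads in a library, a limit that covers counting error only. Its promoter is shown because it was the only one among the 6 RNAs with RefSeq windows to hold the full cAMP response element, which 1.85% of all 35116 windows contain. Both the element and a TATA box core are in capitals.

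MEG3 stretch, chr14:100826048-100826105, plus strand: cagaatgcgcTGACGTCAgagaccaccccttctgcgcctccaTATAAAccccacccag

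The stretch lies in all 3 of the MEG3 windows, among 9 windows of the 6 RNAs. Of 30 other imprinted genes listed, 25 were in the table, 3 of them at 0 throughout, and the other 5 were not analysed here. The 14 tested had a median log2 fold change of -0.0042, and 7 were positive and 7 negative, while 46.8% of all genes tested were positive. MEST, a paternally expressed gene of the mesoderm, measured 83.3 and 83.5 RPKM in LV-CON against 107 and 106 in LV-TOX3 and was the 1 gene past the wider threshold (log2 fold change 0.35, standard error 0.06, limma unadjusted p = 0.0022, adjusted p = 0.655). That threshold was passed upwards by 2.28% of all genes tested. PHLDA2, an imprinted gene of the KCNQ1OT1 domain, had overlapping groups at 13.0 to 14.6 RPKM.

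**Figure D3:**
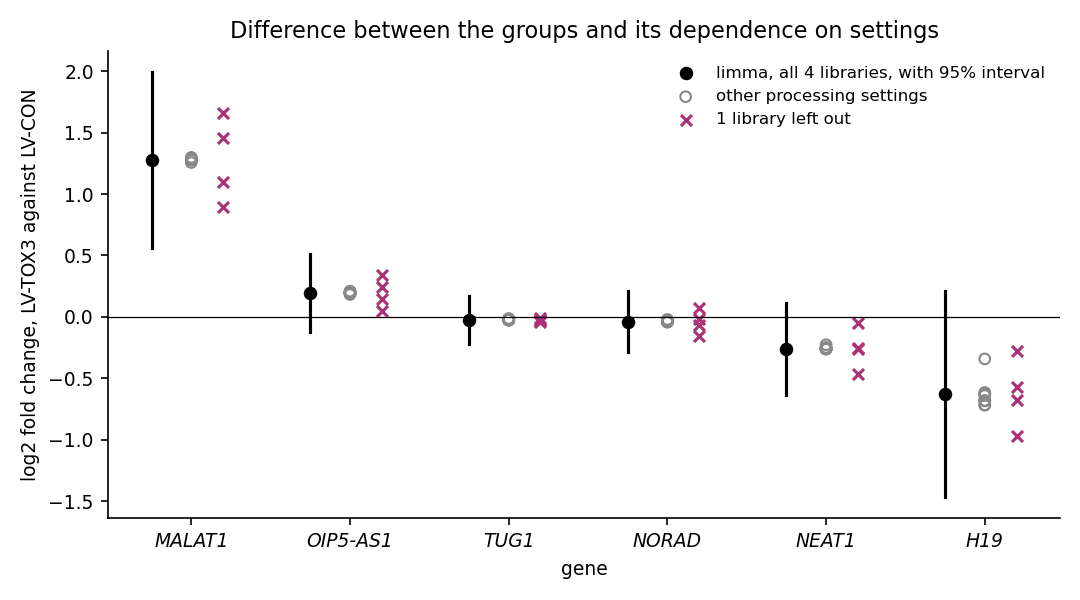
Log2 fold change of the 6 tested RNAs, LV-TOX3 against LV-CON: black points are the limma estimates with 95% intervals, grey circles the other processing settings and purple crosses the fits with 1 library left out. The intervals are not adjusted for the number of genes tested. MALAT1 is the only one of the 6 whose interval, 0.56 to 1.99, does not include 0, although its adjusted p in limma was 0.655. With 1 library left out its log2 fold change ranged from 0.89 to 1.66.

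Genes within 100 kb of the 8 RNAs were described to show whether the differences extended along the chromosome. With the RNAs themselves left out there were 40, of which 22 were tested, 7 positive and 15 negative, with a median of -0.05. None was higher and 2 were lower past the wider threshold, NUSAP1 and EHBP1L1. Over all genes tested, 46.8% were positive, and 2.28% were higher and 2.64% lower past that threshold. EHBP1L1, an endocytic protein gene 67972 bases from MALAT1, measured 6.29 and 4.88 RPKM in LV-CON against 4.33 and 2.89 in LV-TOX3 (log2 fold change -0.63, limma unadjusted p = 0.042). LTBP3, 30485 bases from MALAT1, measured 4.05 and 4.83 RPKM in LV-CON against 5.12 and 5.92 in LV-TOX3, without overlap (log2 fold change 0.31, limma unadjusted p = 0.070). Of 8 neighbours of MALAT1 tested, LTBP3 and the pseudogene AP000769.1 (log2 fold change 0.47) were positive and 6 were negative, NEAT1 among them. FRMD8, next to NEAT1, measured 7.36 to 7.85 RPKM. The count of 2 was 1 without LV-CON replicate 1, without LV-CON replicate 2 or with no filter on low values.

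Log2 fold changes of lncRNA genes in general took both signs. Of the 1337 annotated lncRNA genes tested, 620 were positive and 717 negative, with a median of -0.03. Past the wider threshold 43 were higher and 54 lower. Over all genes tested, 46.8% were positive, and 2.28% were higher and 2.64% lower past it. The lncRNA count, 97 in both directions together, was 31 to 157 under other processing settings that kept all 4 libraries. From a list of 70 other lncRNAs with known names, 50 were tested, of which 19 were positive and 31 negative, with a median of -0.06. None of them passed the wider threshold, but 2 did without LV-CON replicate 1 and 2 without LV-TOX3 replicate 1. SNHG5, a small nucleolar RNA host gene, was below an unadjusted p of 0.05 with 80.2 and 88.1 RPKM in LV-CON against 73.5 and 72.3 in LV-TOX3 (log2 fold change -0.21, limma unadjusted p = 0.040).

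**Figure D4:**
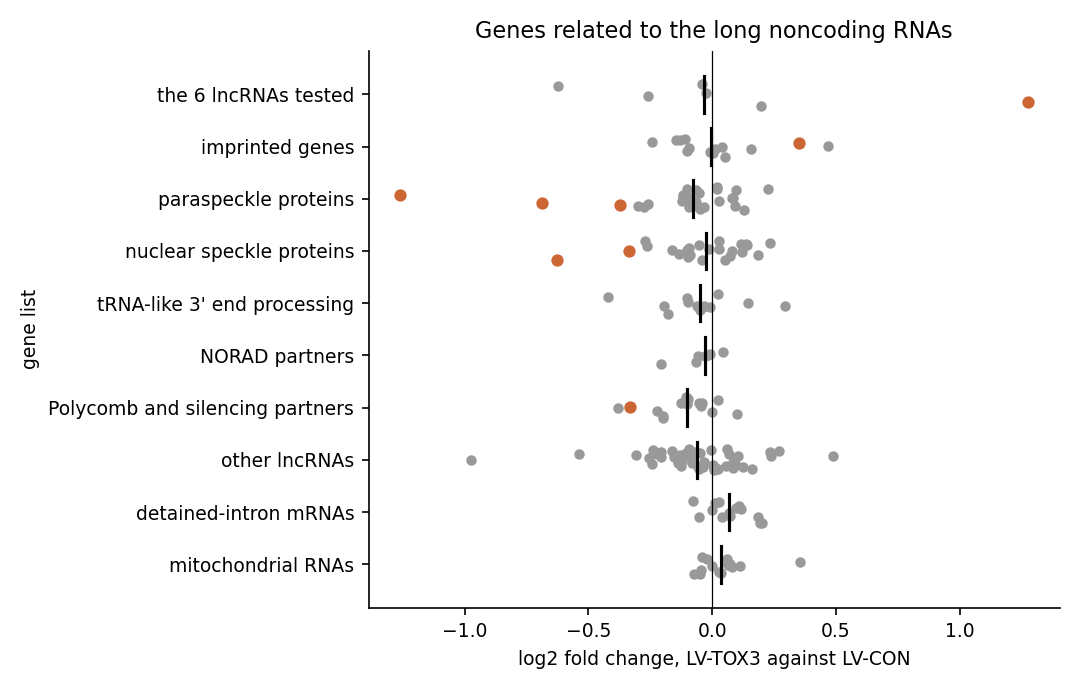
Log2 fold change, LV-TOX3 against LV-CON, of the tested genes in 10 lists, 1 point a gene, with the black bar at the median of the list; orange points passed the wider threshold (unadjusted p under 0.05 and beyond 0.3) and grey points did not. MALAT1 is the orange point at 1.28 in the top row, and the paraspeckle row holds 3 orange points on the left, TAF15 and HNRNPH3 among them.

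The gene most like each RNA was sought among 7048 genes averaging 5 RPKM or more, by the distance between log2 profiles over the 4 libraries after centring. No gene lay within a distance of 0.25 of MALAT1. The nearest was SNORD83A, a small nucleolar RNA, at 0.521, with 4.15 and 3.54 RPKM in LV-CON against 13.3 and 5.78 in LV-TOX3. By comparison 355 genes lay within 0.25 of NEAT1, with GOLGA2, a Golgi protein gene, the nearest at 0.0404, and 5165 lay within 0.25 of TUG1. H19 had 4 such genes and was nearest to the miRNA gene MIR27B, at 0.193. The filter of 5 RPKM is reached on few reads by short genes such as SNORD83A and MIR27B. Their profiles may therefore be largely counting error. Profiles were centred but not scaled, so the number of genes within 0.25 depends on how widely an RNA varied over the libraries. It does not measure how unusual a profile is. With 4 libraries such likeness is a description only.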

How the data were processed

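Poly(A) RNA of KGN cells was sequenced with paired reads of 150 nt in 2 LV-CON and 2 LV-TOX3 libraries, grouped by the sample labels. The authors cleaned the reads (SOAPnuke), aligned these to hg38 (HISAT2), estimated expression by expectation maximization and deposited RPKM values per gene, with tool versions not given in the sources used here. The study's methods name ComBat against batch effects but no batches. Of 29088 genes above 0, all 29088 had values divisible into whole reads (relative tolerance 1e-09), from which read numbers and library totals were recovered. Estimates by expectation maximization are often fractional, which leaves unsure what tool made the table, and how reads shared by overlapping genes were assigned is not known. On simulated data this recovery was exact for 98.2% of 1657 genes with at least 10 reads. Gene positions, types and lengths came from GENCODE v44, which held 33498 of the gene IDs and may not be the authors' release.

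Differences were tested with limma 3.58.1 in R 4.3.3 (eBayes with trend, two-sided) on log2(RPKM + 0.1), over the 14184 genes averaging 0.5 RPKM or more, with Benjamini-Hochberg adjustment over all of them. Fold changes are on that scale, which understates the change of low genes. With 2 libraries against 2, the smallest p of an exact permutation test is 0.33. The second threshold, p under 0.05 and a log2 fold change beyond 0.3, takes the cutoffs of the study's own call of differential expression. The study applied them in limma-voom and also used ComBat, so the counts here are not those of the study. Lists were described by counts and medians, with no set test. The 8 RNAs and the lists were chosen with earlier results of these data known. The genes named are the 8 RNAs, TOX3, up to 4 genes with the smallest p of each list, list members named by function, up to 2 neighbours within 100 kb of each RNA, and the most similar gene above 5 RPKM. Promoter windows are those of RefSeq (GRCh38.p14), which matched 6 of the 8 RNAs, and NEAT1 and KCNQ1OT1 are named only. Other stretches were read from hg38. Tables were handled in Python 3.11.15 with pandas 2.3.3 and numpy 2.4.6.

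Alternatives were another pseudocount (0.01 or 1), no filter or a filter of 1 RPKM, quantile normalization or median ratio scaling, a replicate block, limma-voom on recovered reads (also with the block), and leaving out each library. A limma-voom fit with a filter of 10 reads was added after seeing the data. Some genes covered by this rule are not reported here. The other assays of the study and its table of differential expression were not used here.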

Additional observations from a re-analysis of the deposited data

How the results depend on the processing

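With 2 libraries a group, no difference in the 8 RNAs passed the adjusted p except in limma-voom with the replicate block, and 1 library could move each estimate. Leaving out 1 library gave log2 fold changes from 0.89 to 1.66 for MALAT1, -0.46 to -0.05 for NEAT1, -0.97 to -0.28 for H19, -0.04 to -0.01 for TUG1, 0.05 to 0.34 for OIP5-AS1 and -0.15 to 0.07 for NORAD, whose direction reversed without LV-CON replicate 1 (0.0725). For KCNQ1OT1, fitted without the filter, it was 0.19 to 0.52. The number of RNAs past either threshold, 1, was then 1 to 2, and the number of all genes past the adjusted p was 0 to 0. The wider threshold was then passed by 196 to 406 genes higher and 278 to 425 lower in LV-TOX3.

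The call of TOX3 at the adjusted p was lost, leaving 0 genes, with a pseudocount of 0.01 or no filter. Without a filter, 743 genes were higher and 658 lower past the wider threshold. Replicate numbers are shared between the groups, and the difference between replicates 2 and 1 correlated at 0.19 between groups across 14184 genes. With 2 pairs and no label that says what a number marks, the pairing is a hint from the data only. In limma with the replicate block, 563 genes were lower past the wider threshold and 1 gene passed the adjusted p. None of the RNAs tested did, with adjusted p of limma at 0.245 for MALAT1 and 0.430 for NEAT1. limma-voom with the replicate block leaves 1 residual degree of freedom a gene, so that its p rests on spread pooled over genes. Of 14184 genes it called 614 at the adjusted p, and put 447 higher and 489 lower past the wider threshold. Of the RNAs, 3 were past either threshold, with log2 fold changes of 1.28 for MALAT1 (adjusted p = 2.2e-70) and -0.26 for NEAT1 (adjusted p = 0.0070) among them. With the filter of 10 reads, chosen after seeing the data, limma-voom put 2 of the RNAs past either threshold without the block. Of the 14864 genes in that fit, 333 were higher and 350 lower past the wider threshold. With the replicate block, limma-voom put 4 of the RNAs past either threshold, 1.28 for MALAT1 (adjusted p = 1.2e-15), -0.26 for NEAT1 (adjusted p = 0.016) and 1.11 for KCNQ1OT1 (adjusted p = 0.0014) among them. It then called 617 of the 14864 genes at the adjusted p, with 526 higher and 549 lower past the wider threshold. Of 360 alternative values of list medians and counts, 318 stayed within their limits and 42 moved. Leaving out 1 library turned the sign of the median for imprinted genes, nuclear speckle proteins, tRNA-like end processing, NORAD partners and other binding partners such as ELAVL1. It also did so for detained-intron mRNAs, mitochondrial RNAs and all annotated lncRNA genes. MEG3, KCNQ1 and CDKN1C had too few reads to be compared at this depth.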
